A study of Mus musculus with 6 samples.

Results

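Matricellular proteins are secreted into the extracellular matrix, where they mostly signal to cells rather than carry load. The genes described here were Tgfbi, Postn, Spp1, Tnc, the 4 thrombospondin genes Thbs1, Thbs2, Thbs3 and Thbs4, and Comp, which is also a thrombospondin. They were found on the arrays by name, as 9 of the 22910 genes with a RefSeq match, and 14 of the 56599 probes carried them. They were selected on measured values, namely with the differences between TGF-β1-treated and control cultures on these same arrays known. The values of that comparison are therefore a description of the 9 genes, and no evidence for or against the choice of them. The cells were airway epithelial cells of C57BL/6 mouse lung, grown as organoids (MAOs), dissociated and plated as a flat culture (2D-MAOs) on wells coated with type I collagen. Of 6 cultures, 3 received TGF-β1 from day 3 and 3 did not, in medium that for both groups lacked noggin, a BMP antagonist, and A83-01, a TGF-β receptor inhibitor. All were collected on day 7. The cultures of a group were called biological replicates by the study. Neither the TGF-β1 concentration for the arrays nor the age or sex of the mice was given in the sources used here, and nothing said whether the MAOs came from separate animals, so that the spread between cultures may be technical.

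Most of these proteins are scarce in resting adult tissue and are made during development, wound repair and fibrosis. Tgfbi, named for its induction by TGF-β, and its paralogue Postn are built from fasciclin domains and bind integrins and collagen. Spp1 (osteopontin) and Tnc (tenascin-C) bind integrins, and Spp1 also binds Cd44. Thrombospondins share a C-terminal region that binds calcium and cell-surface receptors, and Thbs1 in addition can release active TGF-β from its latent complex.

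RNA of each culture was hybridised to 1 single-colour array, where each spot's brightness reflects the RNA that its probe has bound. Brightness depends on the probe, so the level of a gene was compared between arrays and not with that of another gene. The sums over marker lists given below add several probes, so that the brightest probes weigh most in them. Levels are given as log2 signal after quantile normalisation, and differences as TGF-β1-treated minus control. Feature Extraction marks whether a spot was well above background, and this held for 55.0% to 59.0% of probes on the 6 arrays. The lowest log2 signal of a probe with that mark was 3.47 to 4.19, depending on the array. A gene was tested when at least 3 of the 6 arrays had a probe of it with that mark. It was called higher or lower when it differed by 2-fold or more with a Benjamini-Hochberg adjusted p under 0.05 in limma over all 14345 genes tested. In bulk RNA of this kind, fewer cells of a type and less RNA per cell cannot be told apart.

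TGF-β1 replicate 3 stood apart from the other TGF-β1 arrays. Its distance to TGF-β1 replicates 1 and 2 over all genes tested was 61.1 and 62.3 in log2 units, against 32.3 between those 2 arrays, and its distance to the controls was 54.4 to 60.9. The replicate 3 arrays of both groups lay in row 2 of the slide and the other 4 arrays in row 1. Results for the genes tested are therefore given with and without TGF-β1 replicate 3 and within the slide rows.

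Tgfbi and Spp1 were called higher in TGF-β1-treated 2D-MAOs, while Tnc and Thbs1 lay above the controls on all 3 arrays without passing the test. Of the 6 fits that left out an array, 6 called Tgfbi and 1 called Spp1. Comp was called lower, but it was well above background in the controls only, and 4 of the 6 fits that left out an array did not call it. Of the 9 genes, 6 were tested, and Postn, Thbs2 and Thbs4 were too dim. The called genes were 2 higher, where 1.19% of all genes tested were called higher, and 1 lower, where 0.188% were called lower. All 3 TGF-β1 arrays lay above all 3 controls for 4 genes and below them for 1, against 12.9% and 13.5% of all genes tested. Without TGF-β1 replicate 3, there were 4 genes called higher and 1 called lower, with 3.83% and 1.09% of all genes called. With any other array left out, 1 was called higher and 0 to 1 lower. Since the genes were chosen with this comparison known, nothing is read from these shares. The median log2 difference was 1.86 over the 6 genes tested, of which Comp was tested through its control arrays alone, and -0.03 over all genes tested.

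**Figure D1:**
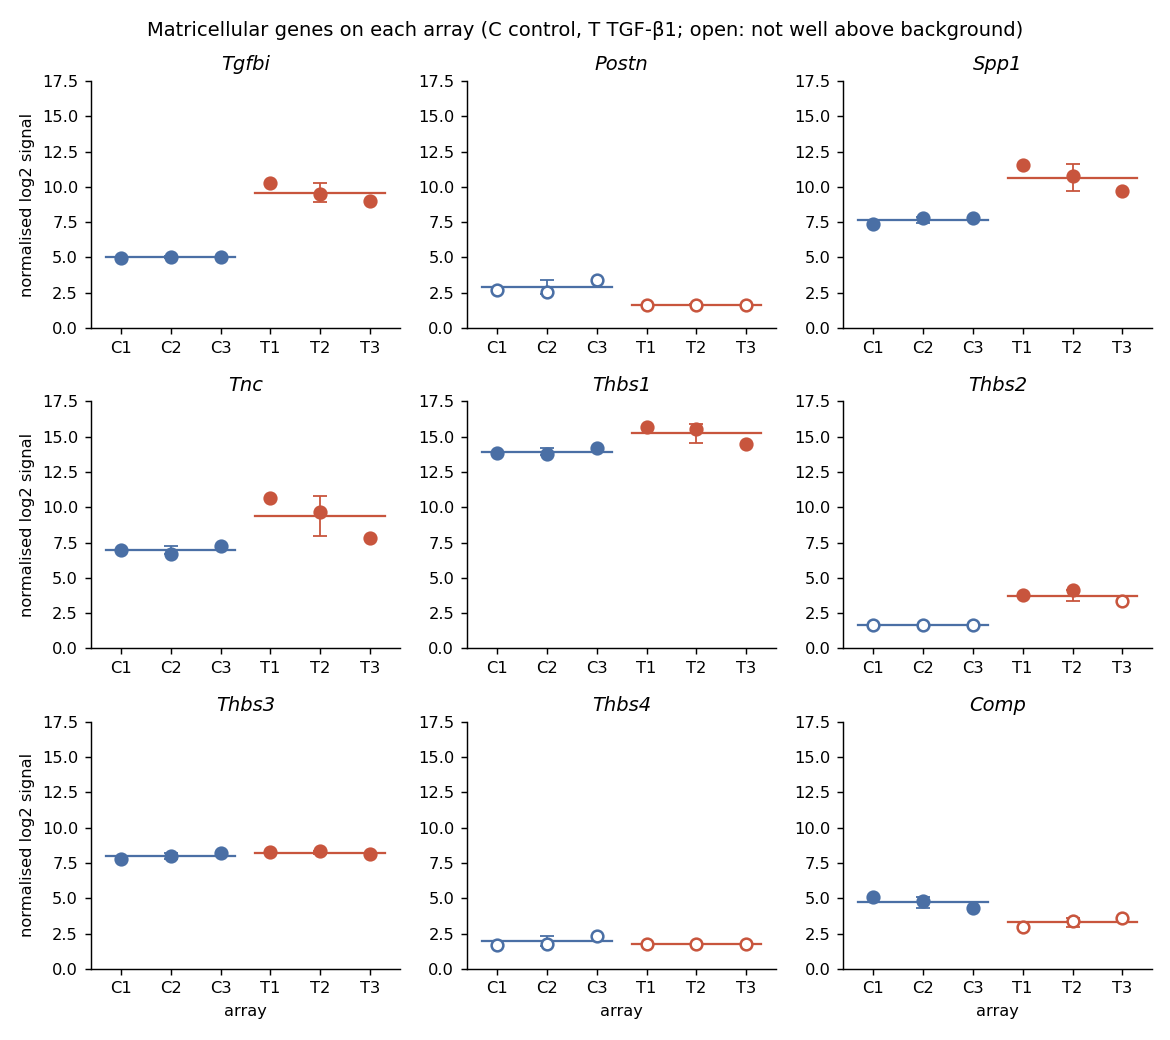
Normalised log2 signal of the 9 genes on each array (C1 to C3 control, T1 to T3 TGF-β1-treated), with the group mean as a line and its SD as a bar. Open points were not well above background, and for a gene with several probes the brightest is shown. Tgfbi and Spp1 lay far above the controls on all TGF-β1 arrays, Tnc and Thbs1 approached the controls in T3, and Postn and Thbs4 had open points throughout.

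The windows of 250 bases before the annotated transcript start are shown for Tgfbi, Spp1 and Tnc, the genes with the largest increases for which RefSeq lists a window. They come from RefSeq on GRCm38.p6, in which 7 of the 9 genes, all but Thbs1 and Comp, matched with 10 windows. For Spp1 and Tnc, which have 2 listed windows each, the first is shown. Capitals mark matches, on either strand, to letter patterns of factors that act with TGF-β or in basal transcription. The Tgfbi window lies at chr13:56609336-56609585 on the plus strand, that of Spp1 at chr5:104434861-104435110 on the plus strand and that of Tnc at chr4:64047016-64047265 on the minus strand.
Tgfbi: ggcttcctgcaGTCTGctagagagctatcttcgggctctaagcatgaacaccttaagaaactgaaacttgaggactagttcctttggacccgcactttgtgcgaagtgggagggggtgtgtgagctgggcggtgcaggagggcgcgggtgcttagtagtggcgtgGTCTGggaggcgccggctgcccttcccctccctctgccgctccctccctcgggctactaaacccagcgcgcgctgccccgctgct
Spp1: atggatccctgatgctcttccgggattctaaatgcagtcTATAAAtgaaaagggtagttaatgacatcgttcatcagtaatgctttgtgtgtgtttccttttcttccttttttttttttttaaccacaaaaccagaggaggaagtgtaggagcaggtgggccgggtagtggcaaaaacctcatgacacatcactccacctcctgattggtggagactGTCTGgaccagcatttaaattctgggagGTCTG
Tnc: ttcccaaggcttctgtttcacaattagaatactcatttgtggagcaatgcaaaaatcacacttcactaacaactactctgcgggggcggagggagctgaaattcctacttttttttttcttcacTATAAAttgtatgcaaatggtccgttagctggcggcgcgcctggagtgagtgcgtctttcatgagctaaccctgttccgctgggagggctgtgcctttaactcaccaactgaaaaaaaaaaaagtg
The short SMAD pattern CAGAC was present 2 times in the Tgfbi window and 2 times in that of Spp1, and 42.2% of the 32851 mouse windows of the same length held it. The TATA pattern TATAAA was present in the windows of Spp1 and Tnc and in 12.4% of all windows. None of these 3 windows held the AP-1 pattern TGANTCA, the SMAD palindrome GTCTAGAC or the TEAD pattern GGAATG, found in 6.75%, 0.167% and 12.6% of all windows. The second window of Spp1 held CAGAC but no TATAAA, and that of Tnc, which overlaps the first, held both. No pattern searched contains another. A match describes the letters only.

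Tgfbi had the largest difference of the 9 genes, and its control values were low and close together. Its log2 signal was 4.95, 5.06 and 5.04 in control replicates 1 to 3 and 10.30, 9.49 and 8.99 in TGF-β1 replicates 1 to 3. The groups did not overlap, and the lowest treated array lay 3.93 above the highest control. The mean rose from 5.01 ± 0.06 to 9.59 ± 0.66 (SD, n = 3 each). This change of 4.58 with an SE of 0.31 corresponds to 23.9-fold (limma adjusted p = 0.00247) and ranked 5 of 14345 genes by size of increase. On the control arrays the Tgfbi spot was well above background but only 1.87 to 2.06 times as bright as its surroundings, against 16.1 to 45.0 times on the treated arrays. With normexp background correction, which treats such dim spots differently, the log2 fold change of Tgfbi was 3.27 (limma adjusted p = 0.00129). Without TGF-β1 replicate 3 it was 4.87 (limma adjusted p = 0.00126), and it was called whichever of the 6 arrays was left out.

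Postn, the fasciclin-domain relative of Tgfbi that marks activated stromal cells, had 3 probes, and none of them rose well above background in any culture. Its spots had 1.1 to 1.55 times the brightness of their surroundings on the control arrays and 1.12 to 1.41 times on the treated arrays. These ranges overlapped, and no fold change can be given. The 2 fasciclin-domain genes of the list thus had different readouts, a large increase for Tgfbi and no spot well above background for Postn.

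Spp1, which encodes a secreted phosphoprotein made by epithelia, macrophages and bone cells, was the second gene called higher. Its log2 signal was 7.39, 7.76 and 7.78 in the controls and 11.53, 10.77 and 9.68 in TGF-β1 replicates 1 to 3. The treated arrays spread over 1.85 and the controls over 0.39, and the nearest arrays of the groups were 1.90 apart. The mean rose from 7.64 ± 0.22 to 10.66 ± 0.93 (SD, n = 3 each), by 3.01 with an SE of 0.43, or 8.08-fold (limma adjusted p = 0.0226). Spot brightness was 6.06 to 8.0 times that of the surroundings in controls and 23.4 to 83.7 times after treatment. Without TGF-β1 replicate 3, Spp1 differed by 3.50 (limma adjusted p = 0.00265). Leaving out any other array, whether control replicate 1, 2 or 3 or TGF-β1 replicate 1 or 2, ended the call of Spp1, with log2 fold changes of 2.60 to 3.07 and limma adjusted p of 0.0529 to 0.103.

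Tnc, a large matrix glycoprotein of repairing and developing tissue, had the widest spread among treated cultures. Its brighter probe gave 6.97, 6.67 and 7.23 in the controls and 10.63, 9.68 and 7.82 in TGF-β1 replicates 1 to 3. The first 2 treated arrays were far above the controls, whereas replicate 3 was 0.59 above the highest control. The means were 6.96 ± 0.28 and 9.38 ± 1.43 (SD, n = 3 each), a log2 difference of 2.42 (SE 0.65, limma adjusted p = 0.118) that did not pass the test. The second Tnc probe gave 4.66, 4.46 and 4.83 against 7.95, 7.91 and 5.61, a difference of 2.51, with the same order of the treated arrays. Without TGF-β1 replicate 3, Tnc was called at 3.19 (limma adjusted p = 0.00533).

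Among the thrombospondins, Thbs1 had a bright spot on every array, 508 to 577 times its surroundings in controls and 740 to 1778 times in treated cultures. Its log2 signal was 13.83, 13.78 and 14.23 in the controls and 15.71, 15.54 and 14.47 in TGF-β1 replicates 1 to 3. Replicate 3 lay 0.25 above the highest control, so that the groups did not overlap but nearly met. The means were 13.95 ± 0.25 and 15.24 ± 0.67 (SD, n = 3 each), a log2 difference of 1.29 (SE 0.33, limma adjusted p = 0.106), which was not called. A second Thbs1 probe gave 9.67, 9.73 and 9.83 against 11.31, 11.77 and 10.16, a difference of 1.33. Without TGF-β1 replicate 3, Thbs1 was called, with 1.68 (limma adjusted p = 0.00609).

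Thbs2, the closest relative of Thbs1 and like it an inhibitor of vessel growth, was near the detection limit. No control array and 2 of the 3 treated arrays, TGF-β1 replicates 1 and 2, were well above background, which is short of the 3 needed for a test. Its background-subtracted signal was 3.62, 3.15 and 2.81 in the controls and 16.5, 18.5 and 9.92 in TGF-β1 replicates 1 to 3. All treated values were above all control values, but the mean over the control arrays of the level at which probes become well above background lay above the treated mean, so that no fold change is given.

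Thbs3, Thbs4 and Comp belong to the other branch of the family, whose members lack the regions by which Thbs1 acts on vessels and on latent TGF-β. Thbs3 had 7.76, 7.98 and 8.19 in controls and 8.27, 8.32 and 8.13 in TGF-β1 replicates 1 to 3. These values overlapped, and the log2 difference was 0.26 (SE 0.14, limma adjusted p = 0.305). A second Thbs3 probe gave 0.24. The Thbs4 probe had no spot well above background, at 1.30 to 1.32 times its surroundings in controls and 1.14 to 1.38 times in treated cultures.

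Comp, the cartilage oligomeric matrix protein, was the only one of the 9 genes called lower. Its log2 signal was 5.07, 4.81 and 4.30 in the controls and 2.97, 3.35 and 3.59 in TGF-β1 replicates 1 to 3, without overlap and 0.71 apart at the nearest arrays. The measured means were 4.72 ± 0.39 and 3.30 ± 0.32 (SD, n = 3 each; limma adjusted p = 0.0405). Feature Extraction marked Comp as well above background in every control and in no treated culture. It thus passed the filter only through the group in which it was higher, the treated values lie within the background, and Comp was untested where detection on all 6 arrays was required. With treated values raised to the lowest signal of probes well above background on each array, where that was higher, Comp was 2.00-fold lower. Spots without the mark can lie above that signal, so this value is no firm lower bound. Spot brightness was 1.58 to 2.04 times that of the surroundings in controls and 1.44 to 1.53 times in treated cultures, so that these ratios lay close together. Comp was still called without control replicate 3 or TGF-β1 replicate 3 (limma adjusted p = 0.0359 and 0.0171). It was not called without control replicate 1 or 2 or TGF-β1 replicate 1 or 2 (limma adjusted p = 0.128 to 0.155), nor with normexp background, which gave a log2 difference of -0.30 (limma adjusted p = 0.141).

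**Figure D2:**
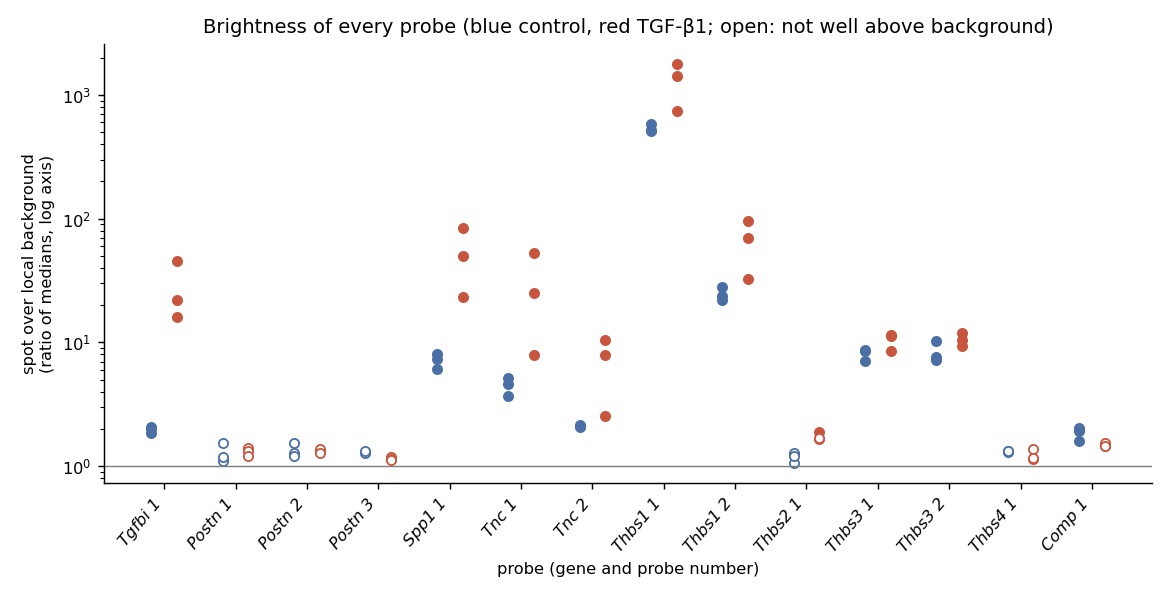
Brightness of each of the 14 probes on each array as the ratio of the median of the spot to the median of its local background, on a log axis (blue control, red TGF-β1-treated). Open points were not well above background. Points of 1 probe can be compared, and those of different probes cannot. The 3 Postn probes, Thbs4 and the treated arrays of Comp lay near 1, the level of the surroundings.

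TGF-β1 replicate 3 was the treated array nearest the control mean in 6 of the 6 genes tested. For Comp, whose treated values lie within the background, this order cannot be read. Relative to the change of TGF-β1 replicates 1 and 2, that of replicate 3 was 81.4% for Tgfbi and 58.0% for Spp1. It was 31.5% for Thbs1 and 27.1% for Tnc. Among the 171 genes called higher over the whole array, replicate 3 was the lowest treated array in 117, and the median of this share was 78.5%.

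Within slide row 1, with 2 arrays of each group, the log2 difference was 4.89 for Tgfbi, 3.57 for Spp1, 3.34 for Tnc and 1.82 for Thbs1. Within slide row 2, with 1 array of each group and hence no error, it was 3.95, 1.90, 0.59 and 0.25 for the same genes. Comp, with its treated arrays within the background, differed by -1.78 in row 1 and by -0.71 in row 2. Thbs3 differed by 0.43 in row 1 and by -0.06 in row 2, the only gene of the 6 whose sign differed between rows. Row 2 held no other arrays than those of replicate 3, so that slide row and the divergence of TGF-β1 replicate 3 cannot be told apart.

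**Figure D3:**
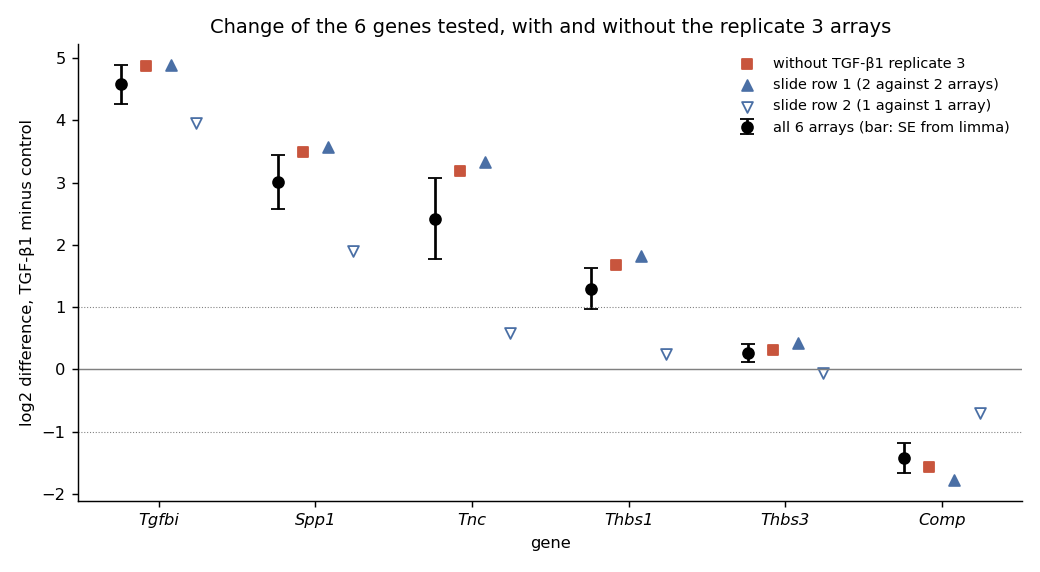
Log2 difference, TGF-β1-treated minus control, for the 6 genes tested: all 6 arrays with the SE from limma, without TGF-β1 replicate 3, and within each slide row. Dotted lines mark a 2-fold difference. Tgfbi stayed between 3.95 and 4.89, whereas Tnc ranged from 0.59 to 3.34 and Thbs1 from 0.25 to 1.82. The values of Comp rest on treated spots that were not well above background.

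The genes with array profiles most like that of Tgfbi were sought among 13516 genes well above background on all 6 arrays, by the root-mean-square difference of the 6 log2 values after each gene's mean was removed. The nearest was Ccn4, a matricellular protein of the CCN family, at 0.44. It was followed by the matrix metalloproteinases Mmp10 at 0.50 and Mmp13 at 0.51, by Ctsw at 0.61 and by Tcim at 0.65. The profiles of Mmp10 and Mmp13 differed from that of Tgfbi in TGF-β1 replicate 3, where they were 9.74 and 9.68 and thus no lower than in replicate 2. For Thbs1 the nearest genes were Ltbp4, which binds latent TGF-β, at 0.10, the laminin chain gene Lama3 at 0.11, Nradd at 0.11, Sulf1 at 0.11 and Nfe2l3 at 0.12. None of these 5 genes was called, with log2 differences of 1.15 to 1.31, and each had TGF-β1 replicate 3 as its lowest treated array.

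**Figure D4:**
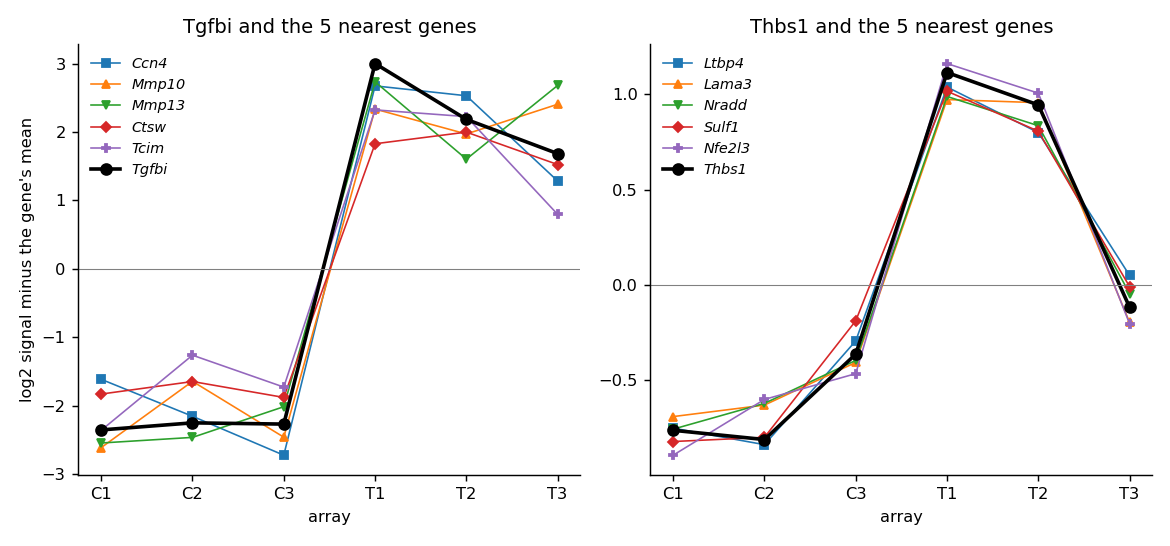
Log2 signal minus the gene's mean over the 6 arrays for Tgfbi (left) and Thbs1 (right), in black, with the 5 genes of nearest profile in colour. Lines only join the points of a gene. The Tgfbi profile had all treated arrays far above the controls, and in the Thbs1 profile TGF-β1 replicate 3 lay nearer to the controls than to TGF-β1 replicates 1 and 2.

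Other matricellular genes were read from the same fit, as a list of 30 of which 17 were tested. Of these, 6 were called higher and 0 lower, beside 1.19% and 0.188% of all genes tested. The count of 6 was 9 without TGF-β1 replicate 3, where 3.83% of all genes tested were called higher. It was 1 without control replicate 1, TGF-β1 replicate 1 or TGF-β1 replicate 2, 3 without control replicate 2 and 5 without control replicate 3. Ccn4 rose by 4.33, Ccn2 (connective tissue growth factor) by 2.10 and Ccn1 by 1.53 on the log2 scale. Sparc, a collagen-binding protein, rose by 2.35, Matn2 (matrilin-2) by 1.51 and Fbln7 (fibulin-7) by 1.28. Their limma adjusted p values were 0.00756 for Ccn4, 0.0111 for Ccn2, 0.0136 for Matn2, 0.0315 for Ccn1, 0.0322 for Sparc and 0.0439 for Fbln7. The median log2 difference of the 17 genes was 1.28, and 11 of the 30 had no spot well above background, among them the tenascins Tnn and Tnr.

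Of 23 receptors and partners of these proteins, 21 were tested, with 3 called higher and 0 lower, beside 1.19% and 0.188% of all genes tested. Itgb3, the integrin chain that pairs with Itgav to bind Spp1, Tgfbi and Thbs1, rose by 2.73 on the log2 scale (SE 0.33, limma adjusted p = 0.0141). Ptprz1, a receptor phosphatase that binds Tnc, rose by 2.11 (SE 0.16, limma adjusted p = 0.00316), and Lrp1, which takes up thrombospondins, by 1.54 (SE 0.24, limma adjusted p = 0.0315). The classical Thbs1 receptors, named after their values were seen, were not called, with log2 differences of 0.00 for Cd47 and -1.01 for Cd36 (limma adjusted p = 0.0837). The median of this list was 0.72. The count of 3 was 8 without TGF-β1 replicate 3, where 3.83% of all genes tested were called higher. It was 1 without control replicate 2, TGF-β1 replicate 1 or TGF-β1 replicate 2 and 2 without control replicate 1. Without control replicate 3, 1 gene of the list was called lower.

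A further list of 10 genes held Tgfb1 to Tgfb3, Ltbp1 to Ltbp4, Lrrc32, Nrros and Furin, and all were tested. Of these, 2 were called higher and 0 lower, beside 1.19% and 0.188% of all genes tested. Ltbp2 was called with a log2 difference of 4.03 (SE 0.30, limma adjusted p = 0.00316), but with only 1 of 3 control arrays well above background, so that its control level is uncertain. Lrrc32, a cell-surface anchor of latent TGF-β, rose by 2.35 (SE 0.22, limma adjusted p = 0.00642). The median was 0.81. Of 10 genes that respond to TGF-β through SMAD proteins, Pmepa1 alone was called, with 1.31 (SE 0.12, limma adjusted p = 0.0062). The median of that list was 0.60. The counts of 2 and 1 were 5 and 2 without TGF-β1 replicate 3 and 3 and 2 without control replicate 3. Over all genes tested, 550 and 150 were called higher in these fits, against 171 with all arrays. Without any of the other 4 arrays the counts of 2 and 1 were the same as with all arrays.

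**Figure D5:**
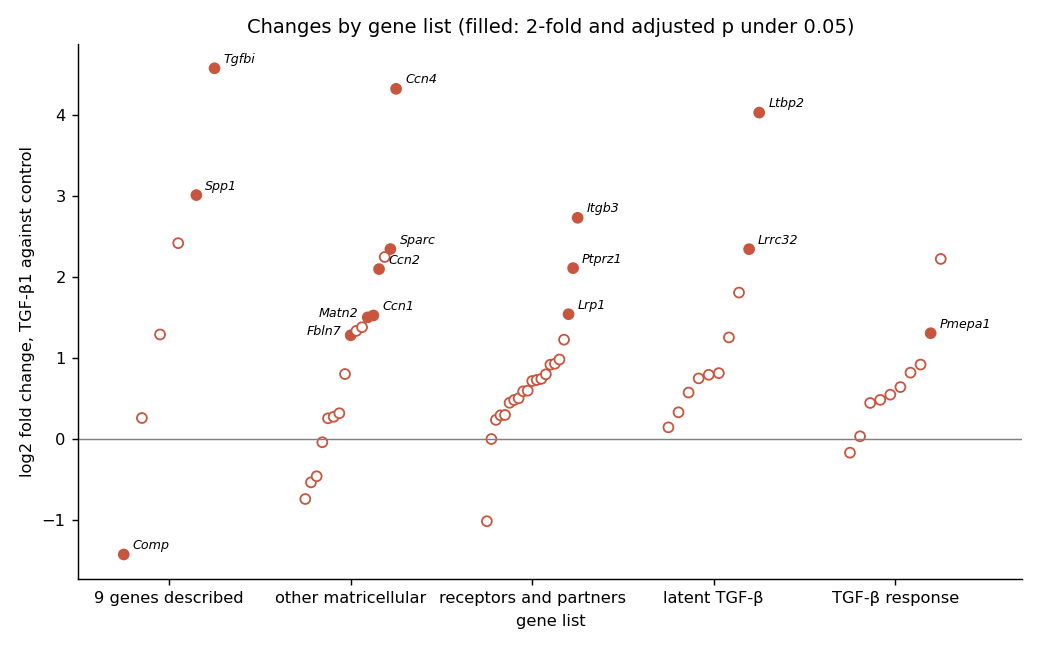
Log2 fold change, TGF-β1-treated against control, of each tested gene of the 9 genes described and of 4 further lists, in ascending order within a list. Filled points passed both thresholds and are named. Tgfbi at 4.58, Ccn4 at 4.33 and Ltbp2 at 4.03 were the highest points, Ltbp2 with 1 of 3 controls well above background. Comp, with no treated array well above background, was the only filled point below 0.

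Several of the 9 genes are also made by stromal, smooth muscle, immune or cartilage cells, so markers of those cells are given beside them. Of 15 airway epithelial markers 13 were tested, all but the mucins Muc5ac and Muc5b, and Foxj1 of ciliated cells was called higher with 1.47. Scgb1a1 of club cells, named after its values were seen, was 10.83, 10.18 and 7.77 in controls and 7.00, 7.57 and 7.42 in TGF-β1 replicates 1 to 3. All its treated values lay below the controls, with a log2 difference of -2.27 that was not called (SE 0.73, limma adjusted p = 0.158). Scgb3a2 and Cyp2f2 of the same list differed by 1.05 and -0.07, also without a call. Over the 13 markers tested, 10 differences were positive and 3 negative, with a median of 0.28. The count called higher was 1, beside 1.19% of all genes tested. It was 5 without TGF-β1 replicate 3, where 3.83% of all genes were called higher, and 1 without any other array. Without control replicate 3, 1 marker of this list was called lower. The summed normalised signal of this list, on a linear scale, was 395286 to 426402 in controls and 428469 to 559465 in treated cultures. Of 11 fibroblast markers 6 were tested. Col1a1 and Col1a2 were called higher. With dimmer control values raised to the lowest signal of probes well above background, they were 2.59-fold and 2.38-fold higher. Spots without that mark can lie above that signal, so these values are no firm lower bounds. Neither gene was well above background on a control array, so that both passed the filter through the treated arrays alone. The count of 2 was 0 without TGF-β1 replicate 2, with normexp background, without a filter and with detection on all 6 arrays. It was 1 without control replicate 1 or 2, 3 without TGF-β1 replicate 3 and in slide row 1 alone, and 4 with array weights. Col3a1, Lum, Pdgfrb, Tcf21 and Twist2 had no spot well above background. Dcn, Thy1, Pdgfra and Fap were well above background on all 6 arrays, controls included. Their log2 differences were 1.00, 2.47, 0.21 and 0.41 without a call. Thy1 was called at 3.57 without TGF-β1 replicate 3 (limma adjusted p = 0.00218). The fibroblast sum, to which Dcn gave most of the signal, was 624 to 697 in controls and 759 to 2755 in treated cultures.

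Of 5 smooth muscle markers 3 were tested, and Des and Myh11 had no spot well above background. Cnn1 was called higher with 2.13. Tagln (2.00) and Acta2 (0.02) were not called. The count of 1 was 0 without control replicate 1, 2 or 3 or TGF-β1 replicate 2, without a filter and with the replicate block. It was 2 without TGF-β1 replicate 3, in slide row 1 alone, and with normexp background, the trended robust prior, array weights, slide row as a block or the methods' t-test without adjustment. The sums, to which Acta2 gave most of the signal, were 10638 to 17426 and 12669 to 18234. Of 7 leukocyte markers 4 were tested and 0 were called, with Ptprc, Adgre1 and Cd79a nowhere well above background and sums of 10563 to 12279 in controls and 13562 to 14749 in treated cultures. The largest log2 differences there were 0.90 for Cd68, 0.43 for Itgam and -0.24 for Cd3e. Of 6 endothelial markers 2 were tested and 0 were called, with Cdh5, Kdr, Tek and Tie1 nowhere well above background and sums of 87.1 to 109 and 105 to 117, and log2 differences of 0.19 for Vwf and 0.13 for Pecam1. Of the 5 cartilage markers, read beside Comp, 2 were tested, and Acan and Col9a1 had no spot well above background. Sox9 was called higher with 1.20, a call lost without any array other than TGF-β1 replicate 3. Without that array Col2a1, with 1 of 3 controls well above background, was called as well at 2.06 (limma adjusted p = 0.00213). The count of 1, beside 1.19% of all genes tested, was also 2 with array weights, in slide row 1 alone and with the methods' t-test without adjustment. It was 0 with normexp background, without a filter and with either block. The cartilage sums, to which Sox9 gave most of the signal, were 176 to 278 and 413 to 573. The part of other cell types in the differences of the 9 genes was not tested.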

How the data were processed

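RNA of 6 cultures was measured on Agilent single-colour mouse arrays read with Feature Extraction 11.0.1.1. The files deposited by the authors hold, per spot, the background-subtracted intensity on a linear scale, with no normalisation between arrays. The authors applied quantile normalisation of log2 values afterwards, which was repeated here. No depth exists for arrays, and the number of arrays limited the precision. With 3671 control spots left out there were 56605 probes, of which 56599 remained after flagged spots were left out. Of these, 32991 were named through RefSeq (GRCm38.p6), although the design's own annotation used an earlier assembly. A gene was represented by its brightest kept probe. Probes well above background on at least 3 arrays numbered 32460. Groups were compared with limma 3.58.1 in R 4.3.3 without covariates, and the fit was tested on simulated data. No slide or scan batch was present beyond slide rows, since all arrays shared 1 slide and 1 scan time.

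The 9 genes and the gene lists were chosen with earlier results of these data known. All 9 genes were named, together with up to 8 genes called in each list and the 5 nearest profiles of Tgfbi and Thbs1. In a list without a call, up to 3 tested genes with the largest difference were named. Further markers of cell types were named after their values were seen. The values of 1 gene of the lists are not reported here. Alternatives included normexp (offset 50) on the deposited median spot and background intensity, scaling to the 75th percentile, no filter, detection on all 6 arrays, averaging a gene's probes, a trended robust variance prior, array weights, the methods' t-test, replicate or slide row as a block, and each array left out. The alternatives for the gene lists were added after the data were seen. Same-numbered arrays of the 2 groups did not deviate together, with correlations of -0.01, 0.33 and -0.05, so that the numbers were not used to pair them.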

Additional observations from a re-analysis of the deposited data

How the results depend on the processing

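The 6 genes tested kept the sign of their differences under the 18 alternatives, of which 17 gave a value for Comp, and Tgfbi was called in 17 of them, with log2 fold changes of 3.27 to 4.91. The exception was the methods' t-test after adjustment, where its p was 0.0968. Spp1 was called in 10 of 18 and Comp in 7 of the 17 that tested it. Counts of genes called higher and lower on the array are followed here by those among the 9 genes, against 171, 27, 2 and 1. With normexp background 17 were lower, and 0 of the 9. Without a filter the counts were 49, 11, 2 and 0, and the 2 were Tgfbi and Thbs2, with Spp1 no longer called (limma adjusted p = 0.109). Detection on all 6 arrays left Comp untested, and 0 of the 9 genes were lower. The trended robust prior also gave 0 lower (limma adjusted p = 0.051 for Comp). The methods' t-test gave 312, 76 and 4 higher of the 9 without adjustment, and 4, 1, 0 and 0 with it. Array weights gave 594, 213 and 4 higher of the 9. Slide row 1 alone gave 624, 232 and 4. Slide row as a block gave 45 lower, and 0 of the 9 (limma adjusted p = 0.0509 for Comp). Leaving out each array in turn gave 48 to 550, 7 to 156, 1 to 4 and 0 to 1. Scaling to the 75th percentile gave 199 and 33.

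With the replicate number as a block, the pairing being unsupported by the data, 86 genes were higher, and of the 9 genes 1 was higher, Tgfbi (limma adjusted p = 0.0215), and 0 were lower. Only replicate 2 correlated best with its own number. Among the other matricellular genes, 0 were called without a filter and 2 with the replicate block, against 6. Of the receptors and partners, 1 was called lower without a filter, with array weights and in slide row 1 alone, against 0. The same held with slide row as a block and with the methods' t-test without adjustment. Receptors and partners called higher numbered 1 without a filter, 7 with array weights and 8 in slide row 1 alone, against 3. Their number stayed at 3 with slide row as a block and with that t-test. With array weights and in slide row 1 alone, 1 airway epithelial marker was called lower and 5 were higher, against 0 and 1. The cause of these shifts was not tested, except that the filter and the left-out arrays change how many genes or arrays enter the fit. Dim spots limit Comp, Thbs2, Postn and Thbs4, whose treated or control spots lay near the brightness of their surroundings.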
